A study of Bos taurus with 18 samples.

Results

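DNA replication and S phase genes were measured in libraries described as bovine fibroblasts kept in culture through senescence to spontaneous immortalization. In most Holstein-like libraries the fibroblast markers were low and markers of other tissues high, as given below. The members were 45 genes, chosen by name, of 24596 genes in a table of expected RNA-seq counts. Of these, 43 matched a gene name in the table, and CDC45 and CDC7 were found through RefSeq synonyms (CDC45L and CDC7L1). The study has 18 libraries from 2 lines, 3 libraries per stage and line. In the Simmental-like line the stages were immortalized (cell line HUN-BF-13), senescent (Sn-BF-13) and primary (PBF-13), and in the Holstein-like line immortalized (HUN-BF-15), senescent (Sn-BF-15) and primary (PBF-15). No transgene, drug or immortalizing gene is given for any group, and the age of the cows is not given. The libraries of a stage are labelled as biological replicates, with nothing on whether they came from separate cultures or animals, so the p-values measure the spread between libraries, which may be technical. The Simmental-like libraries carry the culture names BF-13 at the immortalized stage, BDF-20-MultiXray-Ctrl at the senescent stage and BDF-20-3B-4 at the primary stage, so stage and named culture cannot be told apart. The Holstein-like libraries carry the names BF-15-P23 at the immortalized stage, BF-15-P9 at the senescent stage and BEF at the primary stage, all marked as a rerun. There the primary stage has another culture name than the later stages.

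A cell copies its DNA once per division in steps that the members carry out in order. In G1, the origin recognition complex, CDC6 and CDT1 load the ring-shaped MCM2 to MCM7 helicase onto DNA, which is called licensing. Geminin (GMNN) holds CDT1 in check once copying has begun. In S phase, the CDC7 kinase with its activator DBF4 and the factors MCM10, CDC45 and GINS turn the loaded ring into a moving helicase, and polymerases, the sliding clamp PCNA and its loader RFC copy the strands. Ribonucleotide reductase, thymidylate synthase and thymidine kinase supply the nucleotides, and UHRF1 and DNMT1 copy the methylation pattern onto the new strand. The E2F factors and cyclin E drive the switch from G1 to S phase, and cells that leave the cycle are known to lower many of these transcripts.

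Simmental-like libraries held 18.2 to 23.2 M counts, and a count of 3, the floor for a gene at 0, equals 0.129 to 0.165 CPM (counts of a gene scaled to a common library total). The fibroblast markers summed to 38498 to 64334 CPM in all 9 of them, and the 7 skeletal muscle markers and the 7 kidney markers were each below 1 CPM. Endothelial markers summed to 8.80 to 10.7 CPM in senescent libraries, against 2.07 to 3.15 CPM in primary ones, and to 2.38 to 3.40 CPM in immortalized ones; their part in the results was not tested. The senescent label was set against 5 transcripts of dividing cells (MKI67, TOP2A, CCNB1, CDK1 and BUB1), whose summed CPM by total count was 1157, 1156 and 1090 in senescent libraries, against 434, 862 and 698 in primary ones, and 1319, 1231 and 1126 in immortalized ones. By TMM scaling (explained in the next paragraph) the sums were 1001, 996 and 943 CPM in senescent, against 599, 942 and 799.8 CPM in primary libraries, and 1276, 1183 and 1092 CPM in immortalized ones. The libraries labelled senescent were thus above all primary ones by total count, whereas by TMM scaling senescent 3 and primary 2 were level. By TMM scaling TOP2A was higher in senescent than in primary libraries (log2 change 0.69 ± 0.19, adjusted p = 0.0151), and MKI67 (0.43), CCNB1 (-0.18), CDK1 (0.06) and BUB1 (-0.13) did not pass the test. By total count TOP2A (1.13 ± 0.26, adjusted p = 0.00576), CCNB1 (0.29 ± 0.085, adjusted p = 0.0167), CDK1 (0.53 ± 0.098, adjusted p = 0.00204) and BUB1 (0.34 ± 0.12, adjusted p = 0.0391) were higher, and MKI67 (0.84 ± 0.39, adjusted p = 0.0925) did not pass. Senescent libraries 1 and 2 were close to counting noise of each other (mean chi-square per gene 1.34), whereas the other pairs within a stage gave 3.36 to 353, the highest between primary 1 and 2. In RNA from whole cultures, a difference in the share of cells in S phase and a difference in these transcripts per cell cannot be told apart.

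The counts of calls are given under 2 scalings, because the direction of many members turned on it. Values of single genes are by TMM scaling unless total count is named, and the plot of changes by role shows both. Total-count scaling divides by all counts of a library. TMM scaling (trimmed mean of M values) assumes that most genes do not change, and is the one meant where none is named. By this scaling 58% of all genes tested were called in senescent against primary libraries, and whether the assumption holds was not tested. Its factors ran from 0.725 in primary 1 to 1.16 in senescent 2. Going from TMM to total-count scaling moved the median log2 change of all 13099 genes tested by 0.46 for senescent against primary, by -0.16 for immortalized against senescent and by 0.30 for immortalized against primary. The counts of the 45 genes summed to 4451, 4134 and 4379 TMM-scaled CPM in primary libraries, 3083, 3087 and 3128 in senescent ones and 4258, 4367 and 4401 in immortalized ones. The senescent libraries lay below the other 6 by this scaling. By total count the sums were 3228, 3782 and 3824 CPM in primary libraries, 3566, 3582 and 3618 CPM in senescent ones and 4401, 4544 and 4535 CPM in immortalized ones. The senescent sums then fell among the primary ones, and the immortalized sums lay above the senescent ones under both scalings and above the primary ones by total count only.

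**Figure D1:**
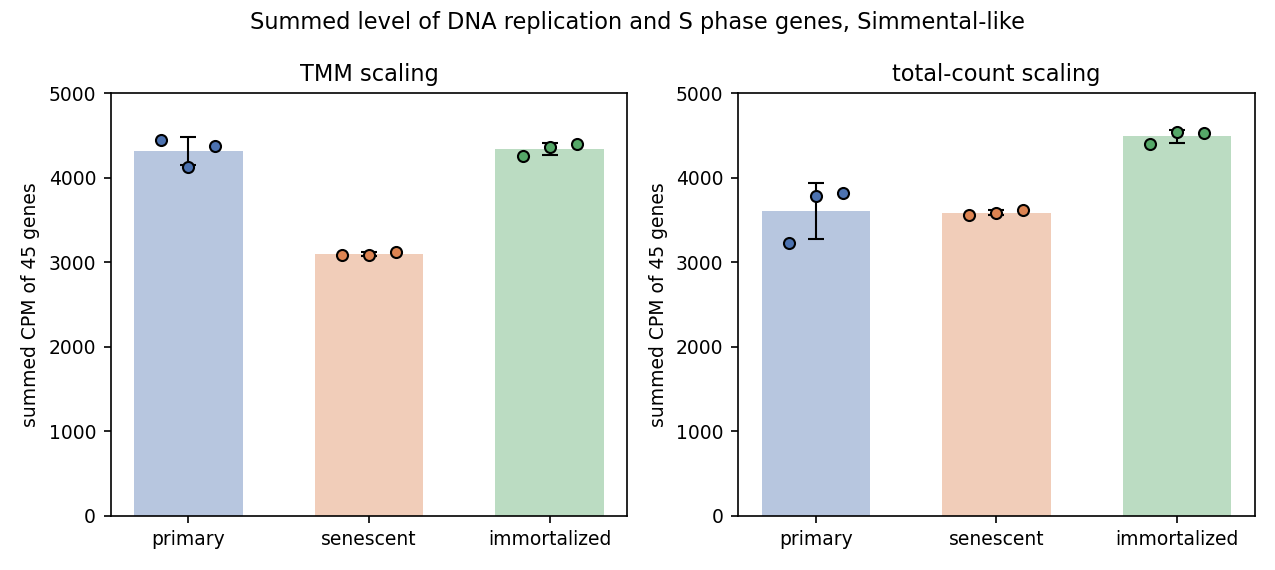
Summed CPM of the 45 genes (y axis) at the 3 Simmental-like stages (x axis), by TMM scaling on the left and total-count scaling on the right. Bars are means with SD over 3 libraries and points are libraries. The senescent libraries (3083 to 3128 by TMM scaling) lie apart from the primary ones in the left panel only.

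In senescent against primary libraries, MCM3, MCM5, MCM7, GMNN, CDC45, PCNA, RFC2, RPA1, LIG1, TYMS and TK1 fell under both scalings, and DBF4, POLD3 and E2F2 rose under both. By TMM scaling 25 of the 45 members fell, where 29.7% of all tested genes did, and 3 rose, where 28.3% of all did. In either direction 28 were called, beside 58% of all genes, and the median log2 change was -0.32, beside 0.01 for all genes. By total-count scaling 11 fell, beside 14% of all genes, and 13 rose, beside 45.5%, which is 24 called beside 59.5%, with a median of 0.14 beside 0.47. Thus 14 members fell by TMM scaling alone, 10 rose by total-count scaling alone (MCM4, CDC6, ORC1, MCM10, GINS3, RFC4, POLA1, POLD1, DNMT1 and CCNE1), and no member was called in opposite directions. The senescent and primary libraries did not overlap for 26 members that were lower in senescent libraries (32.3% of all genes) and for 9 that were higher (34.3%), by TMM scaling. By total count the balance turned, with 13 lower (15.5% of all genes) and 18 higher (53.7%). The number called, 28, became 18 without senescent 2, with 16 lower, and 2 rather than 3 rose without primary 3, senescent 2 or senescent 3. It became 33 without primary 1 or without primary 2, with 5 and 7 higher. When only these 6 libraries were fitted, GINS1, GINS2, RFC3, RFC5, POLA2, RPA3, RRM2, E2F1 and E2F2 did not pass.

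In immortalized against senescent libraries, MCM2, MCM3, MCM5, MCM7, CDT1, GMNN, GINS2, RFC2, RFC4, POLE2, PRIM1, LIG1, TYMS and TK1 rose under both scalings. By TMM scaling 22 members rose, where 16.4% of all genes did, and 0 fell by edgeR, where 16.1% of all did. At an unadjusted p under 0.05 there was 1 lower member, ORC1, and DESeq2 also called that 1 lower. The called share of all genes in either direction was 32.4%, and the members' median log2 change was 0.38, beside -0.00 for all genes. By total-count scaling 14 rose, beside 11.5% of all genes, and ORC1 fell (-0.45 ± 0.15, adjusted p = 0.0462), beside 20.6%, which is 15 called beside 32.1%, with a median of 0.22 beside -0.16. CDC6, GINS1, GINS3, POLD1, POLD3, FEN1, RRM2 and UHRF1 rose by TMM scaling alone. Without overlap, 34 members were higher and 5 lower in immortalized libraries by TMM scaling, beside 35.6% and 35.3% of all genes, and 28 were higher and 10 lower by total count, beside 25.4% and 46.1%. When only these 6 libraries were fitted, 38 members were called, 33 higher and 5 lower (MCM4, ORC1, MCM10, POLE and CCNE1). The higher ones then included MCM6, ORC6, CDC45, DBF4, PCNA, RFC3, RPA1, RPA2, RPA3, RRM1 and CCNE2, which did not pass in the fit of all 9 libraries. The share of all genes called in the fit of 6 libraries is not given, so these 38 calls have no background beside them. Leaving out 1 library gave 16 to 31 calls, and without primary 1 ORC1 and POLE were called lower. This comparison shares its senescent libraries with the one before.

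In immortalized against primary libraries, MCM2, CDC6, GINS2, GINS3, DBF4, RFC4, POLD3, POLE2, PRIM1 and FEN1 were higher under both scalings, and PCNA and RPA1 were lower under both. By TMM scaling 10 members were higher, beside 24.9% of all genes, and 8 lower, beside 25.5%, which is 18 called beside 50.4%. The median log2 change was 0.06, beside -0.00 for all genes. By total-count scaling 17 were higher, beside 35%, and 2 lower, beside 16%, which is 19 called beside 51%, with a median of 0.36 beside 0.30. MCM5, GMNN, RFC3, POLA1, POLD1, TK1 and DNMT1 were higher by total-count scaling alone. The libraries did not overlap for 13 members that were higher in immortalized libraries (29.2% of all genes) and for 10 that were lower (27.2%), by TMM scaling. By total count 25 were higher (41.3%) and 3 lower (17.1%). The 18 calls became 9 when only these 6 libraries were fitted, with 2 lower; ORC6, CDC45, GINS2, RFC2, RFC5, POLA2, PRIM1, FEN1 and E2F1 did not pass there. They became 11 without immortalized 1, 10 without immortalized 2 and 12 without immortalized 3, with 2, 3 and 5 lower, and without primary 3 there were 4 lower.

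**Figure D2:**
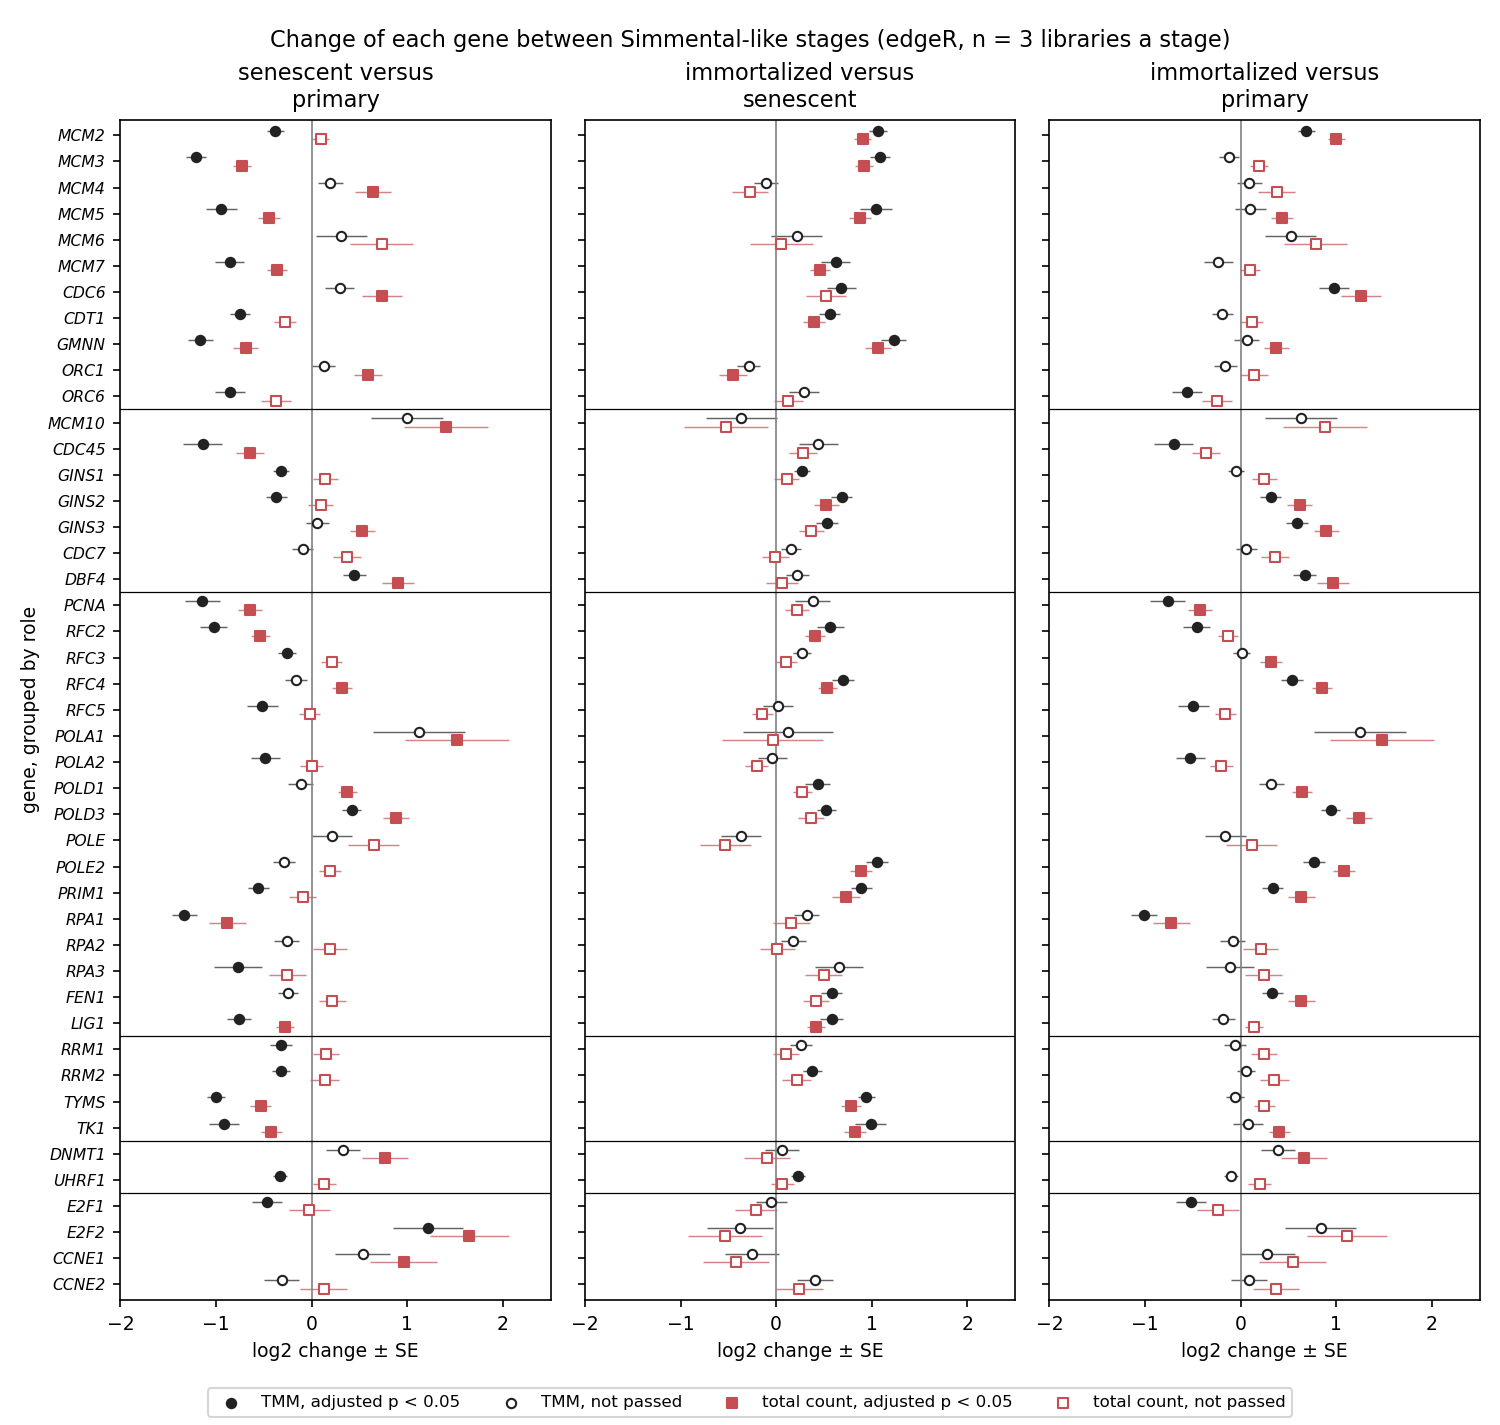
Log2 change of each of the 45 genes (x axis, with SE; y axis, genes grouped by role) in the 3 comparisons of Simmental-like stages, from edgeR on 3 libraries a stage. Black circles are TMM scaling, red squares total-count scaling, and filled symbols passed an adjusted p of 0.05. Of the members, 25 are filled on the lower side by TMM scaling in the left panel, and 22 on the higher side in the middle panel.

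Of the 11 licensing genes, 7 fell and 0 rose in senescent against primary libraries by TMM scaling (29.7% and 28.3% of all genes), and 4 fell and 3 rose by total count (14% and 45.5%). Against senescent libraries, 7 rose in immortalized ones by TMM scaling (16.4% of all genes), and 6 rose by total count (11.5%) while ORC1 fell. The MCM3 subunit of the helicase ring had 237, 191 and 227 CPM in the primary libraries, 93.4, 93.6 and 96.6 CPM in the senescent ones and 191, 197 and 213 CPM in the immortalized ones. All senescent libraries lay below all others. MCM3 fell in senescent against primary libraries (log2 change -1.21 ± 0.10, adjusted p = 3.3e-05; -0.73 ± 0.094, adjusted p = 0.000298 by total count) and rose in immortalized against senescent ones (1.08 ± 0.10, adjusted p = 0.000118), while immortalized and primary libraries overlapped (-0.12 ± 0.10, adjusted p = 0.335). Its partner MCM5 had 358, 222 and 276 CPM in the primary libraries, 144, 146 and 154 CPM in the senescent ones and 279, 309 and 329 CPM in the immortalized ones. The senescent libraries again lay below all others, with MCM5 changes of -0.94 ± 0.16, adjusted p = 0.00162 for senescent against primary and 1.04 ± 0.16, adjusted p = 0.0017 for immortalized against senescent. Against primary libraries the immortalized ones overlapped in MCM5 by TMM scaling (0.10 ± 0.16, adjusted p = 0.634), and by total count MCM5 was higher (0.43 ± 0.11, adjusted p = 0.0133). MCM7 had 467, 303 and 362 CPM in the primary libraries, 206, 204 and 215 CPM in the senescent ones and 298, 320.4 and 346 CPM in the immortalized ones. It fell in senescent against primary libraries (-0.86 ± 0.15, adjusted p = 0.00183) and rose in immortalized against senescent ones (0.62 ± 0.15, adjusted p = 0.0139), a call that ended without senescent 1 or 2 or immortalized 3 (log2 changes 0.57 to 0.62, adjusted p = 0.0531 to 0.0552). Its log2 change in immortalized against primary libraries was -0.23 ± 0.15, adjusted p = 0.229, and it was called lower without primary 2 (log2 change -0.37, adjusted p = 0.0296).

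MCM2 was the ring subunit that was called above its primary level in immortalized libraries by TMM scaling. It had 275, 238 and 259 CPM in the primary libraries, 195, 198 and 201 CPM in the senescent ones and 387, 424 and 431 CPM in the immortalized ones, so that the 3 stages did not overlap at all, with senescent lowest and immortalized highest. MCM2 rose in immortalized against senescent libraries (1.07 ± 0.09, adjusted p = 6.5e-05) and against primary ones (0.69 ± 0.09, adjusted p = 0.000311). Its fall in senescent against primary libraries (-0.38 ± 0.09, adjusted p = 0.00706) was found by TMM scaling only; by total count the change was 0.10 ± 0.09, adjusted p = 0.377. Other tested genes on the chromosome of MCM2, as RefSeq places them, had a median log2 change of 0.50 over 320 genes in immortalized against senescent libraries. In immortalized against primary libraries their median was 0.58, beside 0.69 for MCM2. The part of the chromosome in either rise of MCM2 was not tested. Such medians lay off 0 for other members too. In senescent against primary libraries they were -0.36 for MCM3 and GMNN, -0.34 for MCM7 and RFC2 and -0.26 for RPA1 and TK1. They were 0.32 for MCM6 and 0.39 for POLE2. The part of the chromosome in the changes of these members was not tested either. MCM4 and MCM6 did not pass the test in any comparison by TMM scaling in the fit of all 9 libraries. MCM4 had 58.5, 80.6 and 80.9 CPM in the primary libraries, 82.5, 83.8 and 85.8 CPM in the senescent ones and 79.5, 75.9 and 78.8 CPM in the immortalized ones, and only primary 1 lay well below the rest. Its log2 changes were 0.20 for senescent against primary (adjusted p = 0.221; by total count 0.64 ± 0.19, adjusted p = 0.0181), -0.11 for immortalized against senescent (adjusted p = 0.571; -0.12, adjusted p = 0.0498 with only these 6 libraries fitted) and 0.09 for immortalized against primary (adjusted p = 0.591). MCM6 had 61.4, 148 and 125 CPM in the primary libraries, 141, 138 and 136 CPM in the senescent ones and 159.7, 165 and 157 CPM in the immortalized ones, with primary 1 again the lowest. Its changes were 0.31, 0.22 and 0.52 in the same order of comparisons (adjusted p = 0.34, 0.574 and 0.132), and by total count 0.73, 0.05 and 0.78 (adjusted p = 0.0849, 0.92 and 0.0766). MCM6 was called higher in immortalized against primary libraries without primary 1 or 2 (log2 changes 0.21 to 0.78, adjusted p = 0.0271 to 0.0486) and in immortalized against senescent ones without primary 1 (log2 change 0.21, adjusted p = 0.0357) or with only those 6 libraries fitted (0.20, adjusted p = 0.00426).

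**Figure D3:**
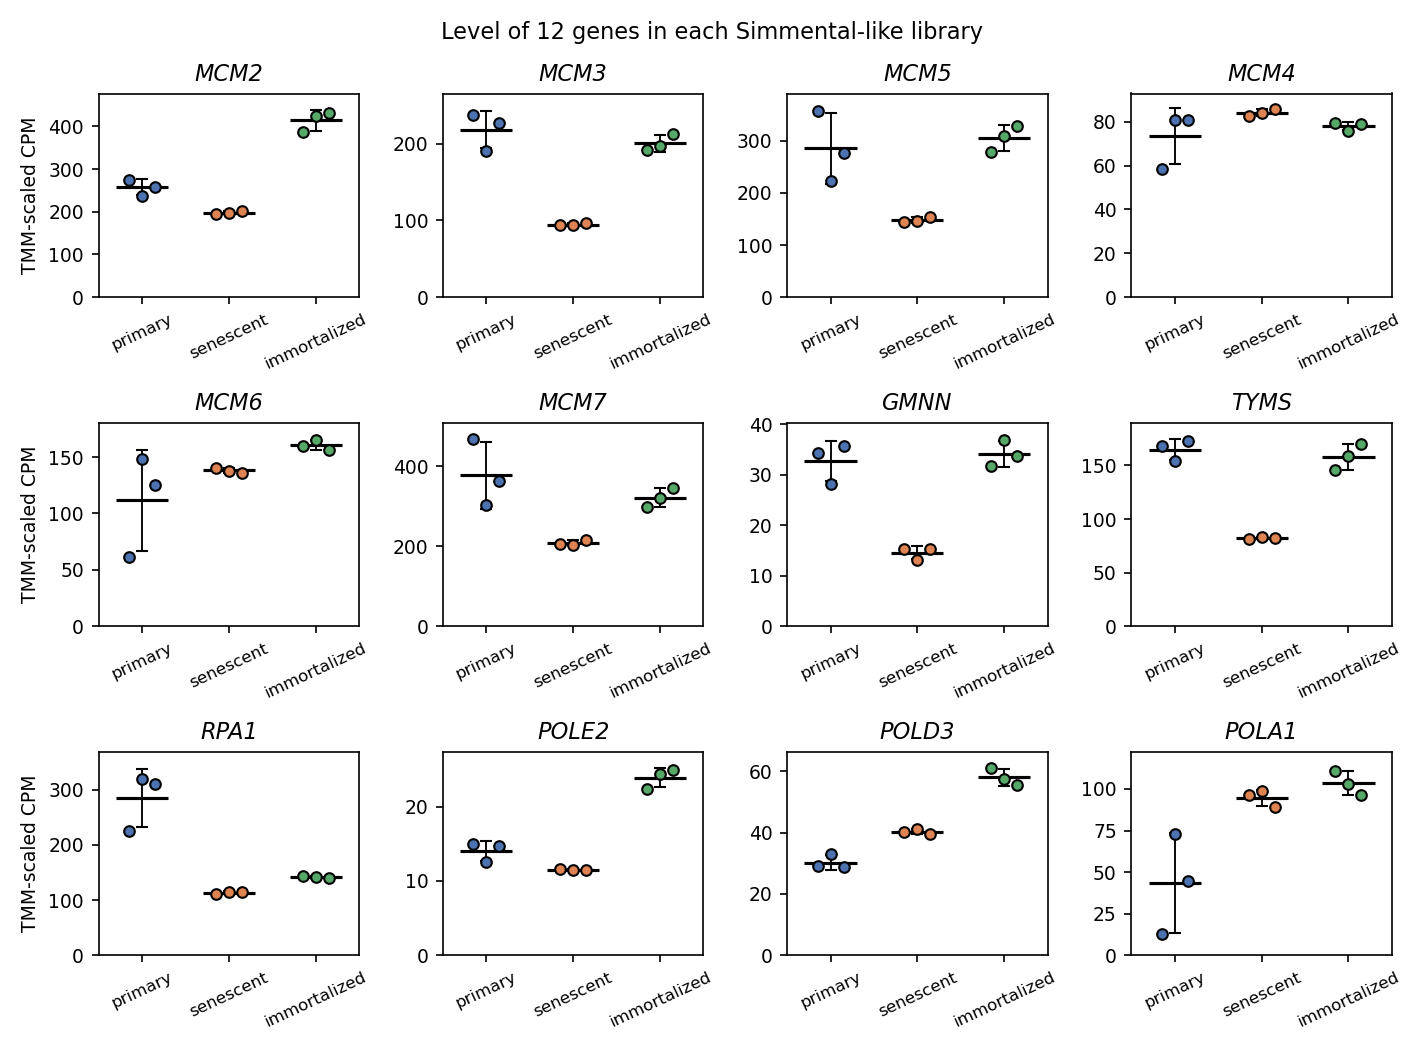
TMM-scaled CPM (y axis, from 0) of 12 of the genes in each Simmental-like library, by stage (x axis). Points are libraries, lines are means and error bars SD over 3 libraries. MCM2, MCM3, MCM5, MCM7, GMNN and TYMS are lowest in the senescent libraries, whereas MCM4 and MCM6 are not, and POLA1 spreads from 12.7 to 73.1 CPM within the primary libraries.

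Shares within the ring do not depend on the scaling. Of the counts of MCM2 to MCM7 together, MCM3 took 16.5% ± 0.506 of them in primary, 10.9% ± 0.0108 in senescent and 13.5% ± 0.285 in immortalized libraries (SD, n = 3 each). The senescent share of MCM3 was below all others. MCM2 took 19.5% ± 0.624 of them in primary, 22.7% ± 0.181 in senescent and 27.97% ± 0.403 in immortalized libraries, the highest in the immortalized libraries. MCM4 took 5.64% ± 1.45 of them in primary, 9.65% ± 0.0657 in senescent and 5.29% ± 0.359 in immortalized libraries. Among senescent libraries its share was 9.58% to 9.71%, above all primary libraries (4.02% to 6.82%). MCM6 took 8.72% ± 4.21 in primary, 15.9% ± 0.512 in senescent and 10.9% ± 0.711 in immortalized libraries, with primary 1 at 4.21%. The shares of MCM7 were 28.3% ± 3.36, 23.9% ± 0.298 and 21.7% ± 0.478 in the same order, and those of MCM5 21.4% ± 2.93, 17.0% ± 0.334 and 20.6% ± 0.586. Since the shares add up to the whole, a rise of any subunit lowers the shares of others. With 3 libraries against 3, an exact permutation test of a share cannot go below p = 0.10, so none is given, and a share of counts also depends on transcript length.

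Of the other licensing genes, geminin had the largest changes by TMM scaling in both comparisons that involve senescent libraries. GMNN had 34.2, 28.2 and 35.7 CPM in the primary libraries, 15.4, 13.01 and 15.3 CPM in the senescent ones and 31.7, 36.8 and 33.8 CPM in the immortalized ones, with all senescent libraries below all others. It fell in senescent against primary libraries (-1.17 ± 0.13, adjusted p = 0.000158) and rose in immortalized against senescent ones (1.23 ± 0.13, adjusted p = 0.00023); both calls held by total count. CDT1, the loading factor that geminin binds, fell by TMM scaling (-0.75 ± 0.11, adjusted p = 0.000604) and rose again in immortalized libraries (0.56 ± 0.11, adjusted p = 0.00475), but by total count the fall was -0.28 ± 0.12, adjusted p = 0.0716. Geminin took 38.8% ± 1.03 of the counts of this pair in primary, 32.3% ± 2.35 in senescent and 43.2% ± 2.21 in immortalized libraries. CDC6, the ATPase that helps load the ring, behaved otherwise, with 11.6, 16.7 and 17.1 CPM in the primary libraries, 18.6, 17.3 and 19.8 CPM in the senescent ones and 30.4, 28.7 and 30.3 CPM in the immortalized ones. CDC6 was higher in immortalized than in senescent libraries by TMM scaling (0.68 ± 0.15, adjusted p = 0.00973; 0.52 ± 0.21, adjusted p = 0.0912 by total count) and higher than in primary ones under both scalings (0.97 ± 0.16, adjusted p = 0.000991). In senescent against primary libraries CDC6 rose by total count only (0.74 ± 0.21, adjusted p = 0.0158; by TMM scaling 0.29 ± 0.15, adjusted p = 0.135). ORC6, a subunit of the origin recognition complex, had 27.8, 20.97 and 30.5 CPM in the primary libraries, 13.5, 15.01 and 15.4 CPM in the senescent ones and 15.9, 19.3 and 18.4 CPM in the immortalized ones. It fell by TMM scaling in senescent (-0.85 ± 0.16, adjusted p = 0.00229) and in immortalized libraries (-0.56 ± 0.16, adjusted p = 0.0175), both against primary ones; by total count neither passed (-0.38 and -0.25), and the immortalized call ended without primary 3 or immortalized 1 (log2 changes -0.49 to -0.45, adjusted p = 0.0618 to 0.0689). The largest origin recognition subunit, ORC1, stayed between 12.6 and 16.6 CPM in all 9 libraries, and no comparison passed by TMM scaling in the fit of all 9 libraries.

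Among the 7 genes of helicase activation and firing, 3 fell and 1 rose in senescent against primary libraries by TMM scaling (29.7% and 28.3% of all genes), and 1 fell and 3 rose by total count (14% and 45.5%). Against senescent libraries, 3 rose in immortalized ones by TMM scaling (16.4% of all genes) and 1, GINS2, by total count (11.5%). CDC45, the helicase cofactor, had 72.8, 41.9 and 47.9 CPM in the primary libraries, 23.5, 23.1 and 27.1 CPM in the senescent ones and 30.9, 32.2 and 36.8 CPM in the immortalized ones. Primary 1 was the highest, and no senescent or immortalized library reached the lowest primary one. It fell in senescent against primary libraries under both scalings (-1.14 ± 0.20, adjusted p = 0.00184; -0.64 ± 0.15, adjusted p = 0.00573 by total count). CDC45 was lower in immortalized than in primary libraries by TMM scaling (-0.70 ± 0.20, adjusted p = 0.0192), but not by total count (-0.36 ± 0.15, adjusted p = 0.0659), and the call ended without immortalized 1 or 2 (log2 changes -0.67 to -0.65, adjusted p = 0.0637 to 0.0689). DBF4, the activator of CDC7, had 24.05, 31.1 and 25.04 CPM in the primary libraries, 35.8, 38.6 and 34.9 CPM in the senescent ones and 44.1, 41.6 and 41.8 CPM in the immortalized ones. The stages did not overlap, with primary lowest and immortalized highest. DBF4 rose in senescent against primary libraries (0.45 ± 0.12, adjusted p = 0.0128), a call that ended without senescent 2 (log2 change 0.40, adjusted p = 0.0548), and was higher in immortalized than in primary ones (0.67 ± 0.12, adjusted p = 0.00188). The kinase CDC7 itself did not pass in any comparison under either scaling (-0.09, 0.15 and 0.06 by TMM scaling for senescent against primary, immortalized against senescent and immortalized against primary). DBF4 took 40.4% ± 1.23 of the counts of the pair in primary, 49.8% ± 0.691 in senescent and 50.98% ± 1.85 in immortalized libraries.

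The GINS subunits did not move alike. GINS2 had 22.9, 22.1 and 25.2 CPM in the primary libraries, 19.7, 16.9 and 17.7 CPM in the senescent ones and 27.9, 29.4 and 30.01 CPM in the immortalized ones. It was lowest in senescent and highest in immortalized libraries, with no overlap. GINS2 rose in immortalized against senescent libraries under both scalings (0.68 ± 0.11, adjusted p = 0.00172). Its fall in senescent against primary libraries (-0.37 ± 0.11, adjusted p = 0.0187) turned to 0.10 by total count and ended without primary 3 or senescent 2 or 3 (log2 changes -0.35 to -0.32, adjusted p = 0.0593 to 0.0813). GINS2 was also higher in immortalized than in primary libraries (0.31 ± 0.11, adjusted p = 0.0398), and this call ended without primary 2 or senescent 1, 2 or 3 or immortalized 1, 2 or 3 (log2 changes 0.27 to 0.34, adjusted p = 0.0568 to 0.12). GINS3 had 7.36, 7.07 and 6.98 CPM in the primary libraries, 7.696, 7.71 and 6.904 CPM in the senescent ones and 11.1, 10.4 and 10.8 CPM in the immortalized ones. By TMM scaling only the immortalized libraries stood apart. They were above both senescent (0.53 ± 0.11, adjusted p = 0.00775) and primary ones (0.59 ± 0.12, adjusted p = 0.00293). By total count the change against senescent libraries was 0.37 ± 0.13, adjusted p = 0.0585. GINS3 then also rose in senescent against primary libraries (0.53 ± 0.13, adjusted p = 0.00815), without overlap. GINS1 moved little. Its mean was 56.4 ± 1.302 CPM in senescent libraries against 70.5 ± 3.82 CPM in primary ones (-0.32 ± 0.087, adjusted p = 0.0132; by total count the sign turned, 0.14), a call that ended without senescent 1 or 2 (log2 changes -0.32 to -0.30, adjusted p = 0.0516 to 0.0592). GINS1 rose in immortalized against senescent libraries by TMM scaling only (0.27 ± 0.087, adjusted p = 0.043), which ended without primary 3 or senescent 1, 2 or 3 or immortalized 1, 2 or 3 (log2 changes 0.25 to 0.29, adjusted p = 0.0576 to 0.154). MCM10, which helps fire the helicase, had 10.7, 40.5 and 25.98 CPM in the primary libraries, 51.3, 53.6 and 49.5 CPM in the senescent ones and 43.6, 40.8 and 35.7 CPM in the immortalized ones. Its change of 0.996 ± 0.38, adjusted p = 0.0505 in senescent against primary libraries did not pass, the groups did not overlap, and total count gave 1.404 ± 0.44, adjusted p = 0.0243. MCM10 was called higher there without primary 1 or 2 (log2 changes 0.61 to 1.48, adjusted p = 0.00399 to 0.0103).

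Of the 17 genes of polymerases, clamp and strand processing, 9 fell and 1 rose in senescent against primary libraries by TMM scaling, beside 29.7% and 28.3% of all genes (4 and 4 by total count, beside 14% and 45.5%). In immortalized against senescent ones 8 rose and 0 fell, beside 16.4% and 16.1% (5 and 0 by total count, beside 11.5% and 20.6%). Against primary libraries, 5 were higher and 5 lower in immortalized ones by TMM scaling, which is near the 24.9% and 25.5% of all genes, and 8 and 2 by total count, beside 35% and 16%. RPA1, the large subunit of the single-strand binding protein, had 225, 319.7 and 309.9 CPM in the primary libraries, 111, 115 and 114 CPM in the senescent ones and 143, 141 and 140.1 CPM in the immortalized ones. All primary libraries lay far above the other 6 by TMM scaling. By total count they also lay above, but primary 1 (163 CPM) was close to immortalized 1 (148 CPM). RPA1 fell in senescent against primary libraries (-1.33 ± 0.13, adjusted p = 7.9e-05) and stayed low in immortalized ones, where it was -1.01 ± 0.13 against primary (adjusted p = 0.000313) and 0.32 ± 0.13, adjusted p = 0.0948 against senescent libraries. It was called higher in the second of these without primary 1 (log2 change 0.31, adjusted p = 0.000912). RPA1 took 66.5% ± 6.86 of the counts of RPA1, RPA2 and RPA3 in primary, 52.5% ± 0.727 in senescent and 51.7% ± 0.607 in immortalized libraries. RPA2 did not pass in any comparison in the fit of all 9 libraries (-0.26, 0.18 and -0.08 for senescent against primary, immortalized against senescent and immortalized against primary). RPA3, the smallest subunit, fell in senescent against primary libraries by TMM scaling (-0.77 ± 0.25, adjusted p = 0.0294; -0.26 ± 0.19, adjusted p = 0.277 by total count), which ended without primary 3 or senescent 1, 2 or 3 (log2 changes -0.80 to -0.75, adjusted p = 0.0581 to 0.0808).

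The sliding clamp PCNA had 309, 177 and 225 CPM in the primary libraries, 111, 101 and 111 CPM in the senescent ones and 134, 140.4 and 145 CPM in the immortalized ones. The order of the stages was primary, immortalized and senescent from high to low, with no overlap. PCNA fell in senescent against primary libraries (-1.14 ± 0.18, adjusted p = 0.00105) and was lower in immortalized than in primary ones (-0.76 ± 0.18, adjusted p = 0.00812), under both scalings. Between immortalized and senescent libraries its change of 0.38 ± 0.18, adjusted p = 0.142 did not pass, and PCNA was called higher without primary 1 or 2 (log2 changes 0.37 to 0.38, adjusted p = 0.00646 to 0.0347). RFC2, a subunit of the clamp loader, had 131, 85.9 and 109 CPM in the primary libraries, 53.5, 53.5 and 53.1 CPM in the senescent ones and 79.6, 78.1 and 79.4 CPM in the immortalized ones. It fell in senescent against primary libraries (-1.03 ± 0.14, adjusted p = 0.000517) and rose in immortalized against senescent ones (0.57 ± 0.14, adjusted p = 0.0161), the second ending without senescent 1, 2 or 3 or immortalized 3 (log2 changes 0.56 to 0.57, adjusted p = 0.0502 to 0.0572). RFC2 was lower in immortalized than in primary libraries by TMM scaling only (-0.46 ± 0.14, adjusted p = 0.0259), which ended without primary 3 or immortalized 1, 2 or 3 (log2 changes -0.47 to -0.45, adjusted p = 0.0622 to 0.0784). RFC4 did not follow it. It had 26.5, 21.1 and 25.1 CPM in the primary libraries, 21.96, 20.99 and 21.9 CPM in the senescent ones and 33.4, 35.1 and 36.8 CPM in the immortalized ones, with the immortalized libraries above all others. RFC4 rose in immortalized against senescent libraries (0.70 ± 0.11, adjusted p = 0.00196) and was higher than in primary ones (0.54 ± 0.11, adjusted p = 0.00457). In senescent against primary libraries its change of -0.16 ± 0.11, adjusted p = 0.246 did not pass, and by total count RFC4 rose (0.31 ± 0.10, adjusted p = 0.027); it was called lower without primary 2 (log2 change -0.26, adjusted p = 0.0446). Of the counts of RFC2 to RFC5, RFC4 took 8.69% ± 0.705 of them in primary, 11.8% ± 0.18 in senescent and 15.2% ± 0.396 in immortalized libraries. RFC3 and RFC5 fell in senescent against primary libraries by TMM scaling (-0.26 ± 0.092, adjusted p = 0.0393 and -0.51 ± 0.16, adjusted p = 0.0241) but not by total count (0.21 and -0.02). The RFC3 call ended without primary 3 or senescent 1, 2 or 3 or immortalized 1, 2 or 3 (log2 changes -0.27 to -0.23, adjusted p = 0.0538 to 0.121) and the RFC5 call ended without senescent 1 or 2 (log2 changes -0.51 to -0.48, adjusted p = 0.0691 to 0.0793). RFC5 was also lower in immortalized than in primary libraries by TMM scaling (-0.50 ± 0.16, adjusted p = 0.0315), which ended without senescent 1 or immortalized 1, 2 or 3 (log2 changes -0.52 to -0.46, adjusted p = 0.0521 to 0.099).

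Subunits of the same polymerase took different courses. POLE2, the second subunit of the leading-strand polymerase epsilon, had 14.9, 12.5 and 14.7 CPM in the primary libraries, 11.5, 11.5 and 11.5 CPM in the senescent ones and 22.4, 24.3 and 24.9 CPM in the immortalized ones. Immortalized libraries were above all others, and POLE2 rose against senescent (1.05 ± 0.11, adjusted p = 0.000234) and against primary libraries (0.77 ± 0.11, adjusted p = 0.000649). Its catalytic partner POLE did not pass in any comparison under either scaling (0.21, -0.37 and -0.16 by TMM scaling for senescent against primary, immortalized against senescent and immortalized against primary). POLE was called lower without primary 1 (log2 change -0.38, adjusted p = 0.024) or with only those 6 libraries fitted (-0.39, adjusted p = 0.00584) in immortalized against senescent libraries and without primary 1 (log2 change -0.38, adjusted p = 0.035) in immortalized against primary ones. POLE2 took 31.6% ± 8.31 of the counts of the pair in primary, 23.8% ± 0.553 in senescent and 45.7% ± 4.91 in immortalized libraries. Other tested genes on the chromosome of POLE2 had a median log2 change of 0.37 over 500 genes in immortalized against senescent libraries. In immortalized against primary libraries their median was 0.72, beside 0.77 for POLE2. Their part in either rise of POLE2 was not tested. PRIM1, the primase that lays the RNA primer, had 16.96, 18.5 and 17.6 CPM in the primary libraries, 11.6, 11.8 and 12.6 CPM in the senescent ones and 20.8, 23.96 and 22.2 CPM in the immortalized ones. It was lowest in senescent and highest in immortalized libraries, with no overlap. PRIM1 rose in immortalized against senescent libraries under both scalings (0.89 ± 0.11, adjusted p = 0.000429), and its fall in senescent against primary ones (-0.56 ± 0.11, adjusted p = 0.00281) was -0.09 and not called by total count. PRIM1 was also higher in immortalized than in primary libraries (0.33 ± 0.11, adjusted p = 0.0302), which ended without primary 3 or senescent 1, 2 or 3 or immortalized 2 or 3 (log2 changes 0.28 to 0.34, adjusted p = 0.0536 to 0.125).

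POLD3, an accessory subunit of the lagging-strand polymerase delta, rose by TMM scaling in all 3 comparisons, with 28.95, 32.99 and 28.7 CPM in the primary libraries, 40.2, 41.2 and 39.6 CPM in the senescent ones and 61.03, 57.5 and 55.4 CPM in the immortalized ones. No stages overlapped. POLD3 rose in senescent against primary (0.42 ± 0.098, adjusted p = 0.00695) and was higher in immortalized than in primary libraries (0.94 ± 0.099, adjusted p = 8.4e-05), under both scalings, and in immortalized against senescent ones it rose by TMM scaling (0.52 ± 0.098, adjusted p = 0.00381; 0.36 ± 0.14, adjusted p = 0.0735 by total count). The catalytic subunit POLD1 had 75.5 ± 1.77 CPM in senescent libraries against 81.8 ± 13.3 CPM in primary ones (-0.12 ± 0.13, adjusted p = 0.469), and by total count the direction turned (0.37 ± 0.10, adjusted p = 0.0121). POLD1 rose in immortalized against senescent libraries by TMM scaling only (0.43 ± 0.13, adjusted p = 0.0344), which ended without senescent 1, 2 or 3 or immortalized 2 or 3 (log2 changes 0.35 to 0.47, adjusted p = 0.0757 to 0.128). Polymerase alpha, which starts each new strand, split likewise. POLA1, its catalytic subunit, had 12.7, 73.1 and 44.7 CPM in the primary libraries, 96.6, 98.5 and 89.3 CPM in the senescent ones and 111, 103 and 96.3 CPM in the immortalized ones. The primary libraries spread 5.74-fold, and all of them lay below the senescent ones. POLA1 did not pass by TMM scaling (1.12 ± 0.48, adjusted p = 0.0741 for senescent against primary) and did by total count (1.52 ± 0.54, adjusted p = 0.0396), and it was called higher without primary 1 or 2 (log2 changes 0.67 to 1.72, adjusted p = 0.00807 to 0.00834). Its partner POLA2 fell by TMM scaling, to 25.7 ± 1.96 CPM in senescent libraries against 36.00 ± 6.58 CPM in primary ones (-0.48 ± 0.15, adjusted p = 0.0228), and not by total count (0.001); the call ended without primary 3 or senescent 1 or 2 (log2 changes -0.48 to -0.43, adjusted p = 0.0582 to 0.0835). POLA2 was lower in immortalized libraries too, against primary ones and by TMM scaling (-0.53 ± 0.15, adjusted p = 0.0184), and that call ended without primary 3 or immortalized 1 or 2 (log2 changes -0.54 to -0.46, adjusted p = 0.0506 to 0.0706). LIG1, which joins lagging-strand fragments, fell in senescent against primary (-0.76 ± 0.12, adjusted p = 0.00102) and rose in immortalized against senescent libraries (0.58 ± 0.12, adjusted p = 0.00682), under both scalings. FEN1, which trims those fragments, was -0.25 ± 0.11, adjusted p = 0.0724 in senescent against primary libraries and rose in immortalized against senescent ones by TMM scaling (0.58 ± 0.11, adjusted p = 0.00341; 0.42 ± 0.14, adjusted p = 0.05002 by total count). FEN1 was called lower in senescent against primary libraries without primary 1 (log2 change -0.30, adjusted p = 0.0148). Against primary libraries it was higher in immortalized ones (0.33 ± 0.11, adjusted p = 0.028), which ended without senescent 1, 2 or 3 or immortalized 2 or 3 (log2 changes 0.27 to 0.33, adjusted p = 0.0513 to 0.113).

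All 4 genes of nucleotide supply fell in senescent against primary libraries by TMM scaling (29.7% of all genes), and 2 of them, TYMS and TK1, did so by total count (14%). Thymidylate synthase (TYMS), which makes dTMP, had 168, 154 and 173 CPM in the primary libraries, 81.5, 83.1 and 81.96 CPM in the senescent ones and 145, 159 and 169.6 CPM in the immortalized ones. Each senescent library held less than any other. TYMS fell in senescent against primary libraries (-1.004 ± 0.092, adjusted p = 4.9e-05; -0.53 ± 0.11, adjusted p = 0.0031 by total count), rose in immortalized against senescent ones (0.94 ± 0.092, adjusted p = 0.000138) and was -0.06 ± 0.091, adjusted p = 0.606 in immortalized against primary ones. Thymidine kinase (TK1), which salvages thymidine, had 163, 102 and 128 CPM in the primary libraries, 67.6, 68.9 and 72.03 CPM in the senescent ones and 130.0, 138 and 145 CPM in the immortalized ones. Primary and immortalized libraries overlapped, and all were above the senescent ones. TK1 fell (-0.91 ± 0.16, adjusted p = 0.00156) and rose (0.99 ± 0.16, adjusted p = 0.00181) in the same 2 comparisons, and in immortalized against primary libraries it was higher by total count only (0.40 ± 0.11, adjusted p = 0.0142). The ribonucleotide reductase subunits moved less. RRM2, the small subunit, had 301, 369.6 and 344 CPM in the primary libraries, 272, 274 and 266 CPM in the senescent ones and 367, 358 and 330.2 CPM in the immortalized ones. The large one, RRM1, had 219, 219 and 221 CPM in the primary libraries, 184, 170.4 and 173 CPM in the senescent ones and 245, 208 and 181 CPM in the immortalized ones. Senescent libraries were below all primary ones for both genes. Both were -0.32 in senescent against primary libraries by TMM scaling (adjusted p = 0.0385 for RRM1 and 0.0222 for RRM2), whereas by total count the signs turned (0.15 and 0.14). The RRM2 call ended without primary 3 or senescent 1, 2 or 3 (log2 changes -0.33 to -0.31, adjusted p = 0.0581 to 0.0762) and the RRM1 call ended without primary 3 or senescent 1, 2 or 3 or immortalized 2 (log2 changes -0.36 to -0.30, adjusted p = 0.0627 to 0.117). RRM2 rose in immortalized against senescent libraries by TMM scaling (0.38 ± 0.099, adjusted p = 0.0187; 0.21 ± 0.15, adjusted p = 0.315 by total count), which ended without senescent 1, 2 or 3 or immortalized 1 or 2 (log2 changes 0.35 to 0.39, adjusted p = 0.0655 to 0.075), and RRM1 was 0.26 ± 0.11, adjusted p = 0.113. RRM2 took 60.5% ± 2.46 of the counts of the pair in primary, 60.6% ± 1.02 in senescent and 62.6% ± 2.37 in immortalized libraries.

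Of the maintenance methylation pair, UHRF1, which recognises hemimethylated DNA and recruits DNMT1, had 165, 177 and 175 CPM in the primary libraries, 136, 135 and 139.8 CPM in the senescent ones and 162, 160.0 and 159 CPM in the immortalized ones. It was lowest in the senescent libraries. UHRF1 fell in senescent against primary (-0.33 ± 0.076, adjusted p = 0.00614) and rose in immortalized against senescent libraries (0.23 ± 0.076, adjusted p = 0.0476) by TMM scaling only, and the second call ended without primary 3 or senescent 1, 2 or 3 or immortalized 1, 2 or 3 (log2 changes 0.22 to 0.24, adjusted p = 0.0631 to 0.162). By total count the first turned to 0.13. The methyltransferase DNMT1 had 202 ± 1.01 CPM in senescent libraries against 161 ± 43.2 CPM in primary ones (0.32 ± 0.18, adjusted p = 0.143), with primary 1 at 113 CPM. It was higher by total count in senescent (0.76 ± 0.24, adjusted p = 0.0244) and in immortalized libraries (0.66 ± 0.24, adjusted p = 0.0471), both against primary ones, and by TMM scaling without primary 2 (log2 change 0.50, adjusted p = 0.0221).

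The 4 G1/S regulators did not move as a group. In senescent against primary libraries 1 rose and 1 fell by TMM scaling (28.3% and 29.7% of all genes). By total count 2 rose and 0 fell (45.5% and 14%). E2F2, an activating E2F, had 0.681, 2.26 and 1.12 CPM in the primary libraries, 3.095, 2.99 and 3.697 CPM in the senescent ones and 2.34, 3.07 and 2.11 CPM in the immortalized ones. It rose in senescent against primary libraries under both scalings (1.21 ± 0.36, adjusted p = 0.0201; 1.65 ± 0.41, adjusted p = 0.00905 by total count), and the first call ended without primary 3 or senescent 3 (log2 changes 1.08 to 1.12, adjusted p = 0.0621 to 0.0688). Its paralog E2F1 had 22.7, 34.4 and 32.6 CPM in the primary libraries, 21.2, 20.5 and 23.2 CPM in the senescent ones and 19.7, 21.8 and 21.2 CPM in the immortalized ones. Primary 1 lay among the senescent libraries, below primary 2 and 3. E2F1 fell in senescent (-0.47 ± 0.16, adjusted p = 0.0339) and in immortalized libraries (-0.52 ± 0.16, adjusted p = 0.0257), both against primary ones and by TMM scaling only. The first call ended without primary 2 or 3 or senescent 1, 2 or 3 or immortalized 2 or 3 (log2 changes -0.52 to -0.36, adjusted p = 0.0532 to 0.108), the second without primary 2 or 3 or immortalized 1, 2 or 3 (log2 changes -0.55 to -0.41, adjusted p = 0.0548 to 0.0881), and by total count the changes were -0.02 and -0.24. The G1/S cyclins CCNE1 and CCNE2 did not pass by TMM scaling in any comparison in the fit of all 9 libraries. CCNE1 averaged 8.11 ± 0.452 CPM in senescent libraries against 5.55 ± 2.36 CPM in primary ones (0.54 ± 0.29, adjusted p = 0.141), and rose by total count (0.96 ± 0.35, adjusted p = 0.0414). CCNE2 averaged 13.6 ± 0.805 CPM in senescent libraries against 16.9 ± 4.51 CPM in primary ones (-0.32 ± 0.19, adjusted p = 0.172); it was called lower without primary 1 (log2 change -0.50, adjusted p = 0.00602). Of these 4, 0 passed in immortalized against senescent libraries by edgeR under either scaling in the fit of all 9 libraries. Of all genes 32.4% were called there by TMM scaling and 32.1% by total count. With only those 6 libraries fitted, CCNE1 was lower (-0.27, adjusted p = 0.0398) and CCNE2 higher (0.39, adjusted p = 0.00207) in immortalized ones.

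The primary libraries varied most. The ratio of the highest to the lowest TMM-scaled CPM among the 3 libraries of a stage had a median over the members of 1.07 in senescent, 1.11 in immortalized and 1.38 in primary libraries, beside 1.10, 1.19 and 1.65 for all genes. It was above 2 for 6 members in primary libraries (5.74 for POLA1, 3.79 for MCM10, 3.32 for E2F2, 2.54 for CCNE1, 2.42 for MCM6 and 2.23 for RPA3) and for 0 at the other stages. Primary 1 was the highest of the 3 for 16 members and the lowest for 20, primary 2 the highest for 17 and the lowest for 22, and primary 3 the highest for 12 and the lowest for 3. The libraries also differed with gene length. Across 10984 tested genes whose length RefSeq gives (83.9%), a library's deviation from the gene's mean over the 9 libraries had a Spearman correlation with gene length of -0.44 in primary 1, 0.05 in primary 2 and -0.28 in primary 3, against 0.34, 0.35 and 0.27 in senescent and 0.25, 0.09 and -0.06 in immortalized libraries. The 45 members showed -0.38, -0.02 and -0.38, then 0.38, 0.42 and 0.40, and then 0.24, 0.03 and -0.14. POLA1, the longest member at 295 kb, is the one that spread most in primary libraries. Of the others above 2, MCM10 (36.7 kb) and MCM6 (34.6 kb) were among the 15 longest members. E2F2 (23 kb) was in the middle 15, and CCNE1 (11.9 kb) and RPA3 (3.21 kb) were among the 15 shortest. RRM1 (40.4 kb), among the 15 longest, spread least (1.01-fold). In senescent against primary libraries the 15 shortest members had a median log2 change of -0.51, the 15 in the middle -0.32 and the 15 longest 0.13. In immortalized against senescent libraries the medians were 0.53, 0.44 and 0.22, and in immortalized against primary ones -0.06, 0.07 and 0.31, all by TMM scaling. These correlations are across genes, which share their libraries and are not independent replicates, and the part of gene length in the members' changes was not tested.

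**Figure D4:**
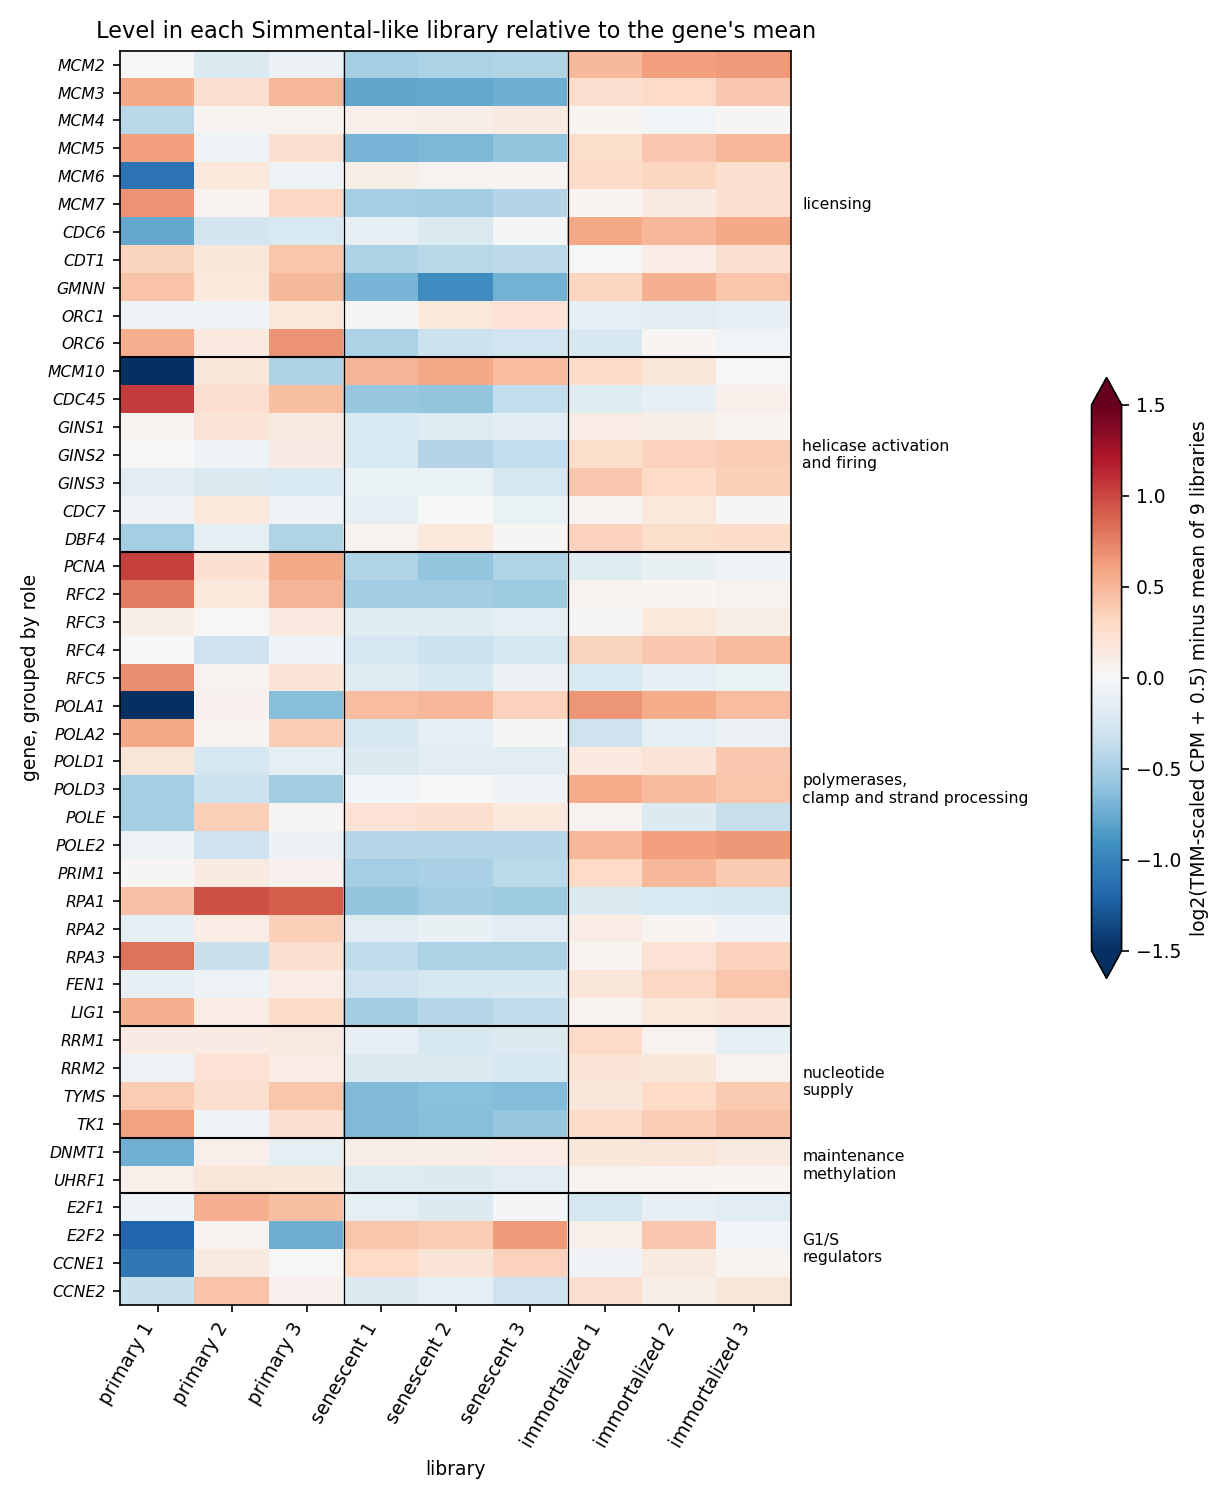
TMM-scaled level of each of the 45 genes (rows, grouped by role) in the 9 Simmental-like libraries (columns), as log2(CPM + 0.5) minus the gene's mean over the libraries, red above and blue below it. The colour scale ends at 1.5 and values past it have the end colour. Most rows are blue in the senescent columns, and primary 1 holds both strong red (CDC45, PCNA) and strong blue (POLA1, MCM10, MCM6).

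Another 52 genes of the same pathway were read beside the members. They were listed by role and not by change, but with earlier results of these data known. In senescent against primary libraries 13 rose (25% of them, beside 28.3% of all genes) and 20 fell (38.5% beside 29.7%) by TMM scaling. By total count 24 rose (46.2% beside 45.5%) and 7 fell (13.5% beside 14%). The medians of 0.01 and 0.45 were near those of all genes, 0.01 and 0.47. The 6 largest called changes by TMM scaling were in RNASEH2A (-1.31 ± 0.21, adjusted p = 0.00121; -0.80 by total count) and RNASEH2C (-1.16 ± 0.26, adjusted p = 0.00556; -0.64 by total count), subunits of the enzyme that removes RNA from DNA, in the polymerase delta subunits POLD2 (-1.23 ± 0.21, adjusted p = 0.00168; -0.72 by total count) and POLD4 (-1.08 ± 0.26, adjusted p = 0.00821; -0.57 by total count), in the alternative clamp loader subunit DSCC1 (-1.21 ± 0.14, adjusted p = 0.000155; -0.72 by total count), all lower, and in the repressor E2F7, which was higher (1.18 ± 0.23, adjusted p = 0.003; 1.63 by total count). By total count the 6 largest were all higher, in E2F7, SHMT1 (1.49), TICRR (1.47), the nucleoside kinase DCK (1.31), TOPBP1 (1.30) and E2F3 (1.30), of which E2F3 was not called by TMM scaling (0.87, adjusted p = 0.0512). Levels of some were low. By total count SHMT1 averaged 2.11 CPM in senescent and 0.742 CPM in primary libraries, and E2F7 6.03 and 1.92 CPM. In immortalized against senescent libraries 14 rose and 3 fell by TMM scaling (26.9% and 5.77%, beside 16.4% and 16.1% of all genes), and 11 and 3 by total count (21.2% and 5.77%, beside 11.5% and 20.6%). The dUTPase DUT averaged 242 ± 23.9 CPM in immortalized libraries against 95.9 ± 2.33 CPM in senescent ones (1.34 ± 0.30, adjusted p = 0.0102; 1.18 by total count). The folate enzyme MTHFD1 (0.95 ± 0.10, adjusted p = 0.000235; 0.78 by total count), POLD2 (0.94 ± 0.21, adjusted p = 0.0102; 0.78 by total count), the nucleotide pyrophosphatase DCTPP1 (0.86 ± 0.29, adjusted p = 0.0496; 0.70 by total count) and the replisome factor WDHD1 (0.85 ± 0.099, adjusted p = 0.000336; 0.69 by total count) also rose, and the folate enzyme SHMT1 fell (-0.94 ± 0.25, adjusted p = 0.0195; -1.10 by total count). SHMT1 was again low, at 0.944 CPM in immortalized and 1.82 CPM in senescent libraries by TMM scaling. In immortalized against primary libraries 16 were higher and 7 lower by TMM scaling (30.8% and 13.5%, beside 24.9% and 25.5% of all genes). By total count 26 were higher and 2 lower (50% and 3.85%, beside 35% and 16%). The 6 largest by TMM scaling had MTHFD1 at 306 ± 13.4 CPM in immortalized libraries against 104 ± 12.4 CPM in primary ones (1.56 ± 0.10, adjusted p = 6.1e-06; 1.85 by total count), E2F7 (1.55 ± 0.23, adjusted p = 0.000711; 1.84 by total count), WDHD1 (1.16 ± 0.10, adjusted p = 2.6e-05; 1.48 by total count), the firing factor TICRR (1.12 ± 0.13, adjusted p = 0.000141; 1.41 by total count) and the phosphatase CDC25A (1.003 ± 0.13, adjusted p = 0.000279; 1.30 by total count) higher, and POLD4 lower (-1.26 ± 0.26, adjusted p = 0.00437; -0.91 by total count).

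The Holstein-like libraries were read one by one, since their tissue markers differ within a stage. By total count, skeletal muscle markers summed to 153530 to 154939 CPM in the 3 primary libraries. Heart markers summed to 22295 CPM and muscle markers to 12763 CPM in senescent 1. Liver markers summed to 165647 and 139712 CPM in senescent 2 and 3 and to 145522 CPM in immortalized 1. Kidney markers summed to 11121 CPM in immortalized 2, and fibroblast markers to 65629 CPM in immortalized 3, against 353 to 1527 CPM in the other 8 libraries. In that library endothelial markers also summed to 4724 CPM and immune markers to 4421 CPM, led by VWF (2401 CPM) and CD74 (2231 CPM), against at most 10.7 and 9.01 CPM in any Simmental-like library. Fibroblast markers were thus high in 1 of the 9 libraries, together with markers of other cell types, and no comparison of stages is made. The 45 genes summed to 339, 316 and 342 CPM in primary, 391, 431 and 411 CPM in senescent and 373, 719 and 870 CPM in immortalized libraries, against 3228 to 4544 CPM over the Simmental-like ones. The highest sum was in the library with fibroblast, endothelial and immune markers. For 37 of the 45 members the highest Holstein-like CPM was below the lowest Simmental-like CPM, as it was for 15.6% of the 13099 genes, and the lines differ in tissue markers as well.

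Members differed in how far they were seen in the Holstein-like libraries. The primary libraries held 1.42 to 1.47 M counts, so that 3 counts equal 2.05 to 2.11 CPM, and 11, 12 and 11 members were at 0 there, against 1, 3 and 1 in the deeper senescent libraries and 0 in the immortalized ones. A member at 0 in a primary library could thus lie at up to about that level. MCM7 had 50.01, 38.2 and 42.1 CPM in primary, 20.4, 55.1 and 41.5 CPM in senescent and 35.8, 58.4 and 97.3 CPM in immortalized libraries. RPA1 had 54.8, 47.7 and 49.1 CPM in primary, 54.3, 35.2 and 41.7 CPM in senescent and 34.1, 105 and 88.96 CPM in immortalized libraries. RRM1, the reductase subunit that pairs with RRM2 in S phase, had 41.1, 47.7 and 54.8 CPM in primary, 35.6, 80.5 and 62.7 CPM in senescent and 65.7, 67.8 and 57.3 CPM in immortalized libraries. These genes were present in every library, whatever its tissue markers. RRM2 had 0, 0 and 1.404 CPM in primary, 0.355, 1.32 and 0.6 CPM in senescent and 1.43, 2.55 and 4.94 CPM in immortalized libraries, against 218 to 379 CPM over the Simmental-like ones. CDC6 stayed at or below 0.546 CPM and ORC1 at or below 1.00 CPM in all 9. GINS2 had at most 0.429 CPM there, while GINS1 had 0.685, 0.682 and 0 CPM in primary, 4.54, 19.7 and 15.1 CPM in senescent and 15.7, 11.5 and 23.2 CPM in immortalized libraries. The 5 transcripts of dividing cells summed to 1.36 to 22.8 CPM over the Holstein-like libraries.

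**Figure D5:**
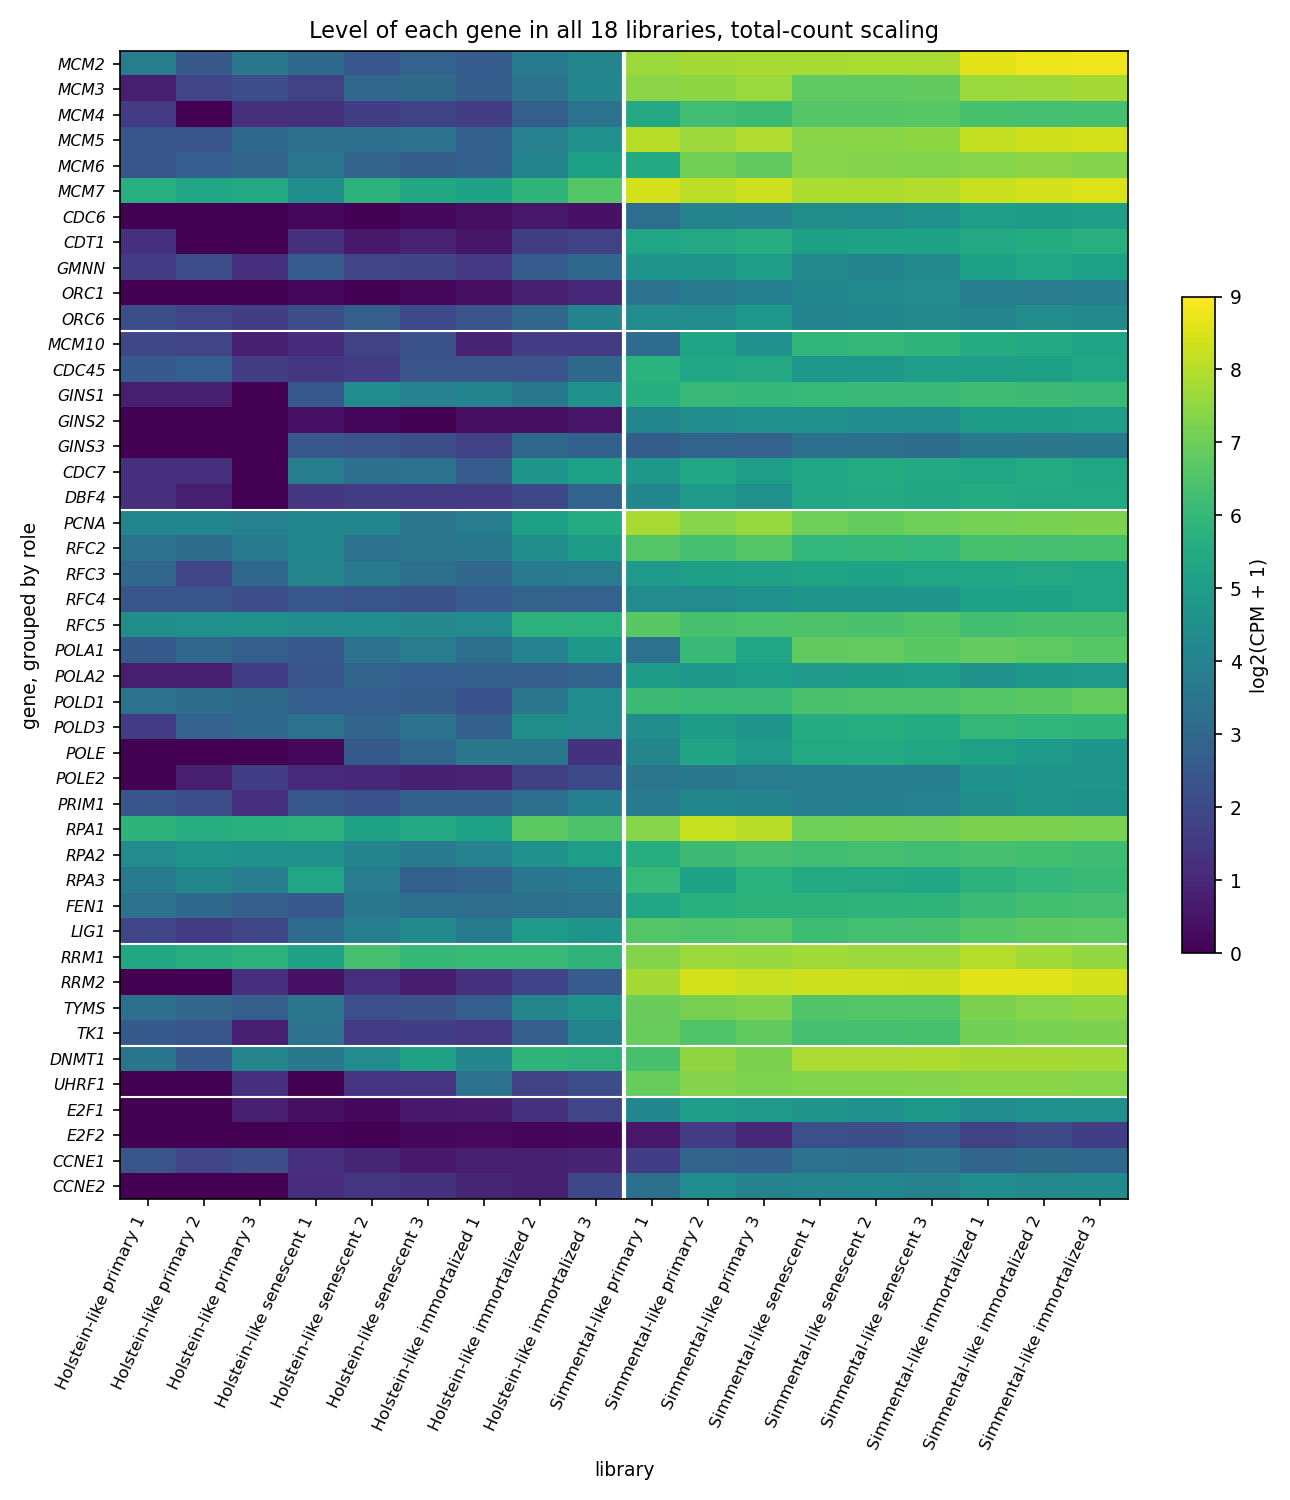
Level of each of the 45 genes (rows, grouped by role) in all 18 libraries (columns) as log2(CPM + 1) by total count, from 0 (dark) to 9 (light). Holstein-like libraries are left and Simmental-like ones right of the white line. MCM7, RPA1 and RRM1 are visible in every column, whereas CDC6, ORC1, GINS2 and E2F2 are near 0 in all Holstein-like columns.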

How the data were processed

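RNA was isolated with RNeasy mini kits and sequenced as single reads on a NextSeq after NEBNext Ultra II preparation, per the labels. The authors deposited 1 table of expected counts (salmon estimates summed per gene, per the file name). The genome build is UMD3.1, per the submitters' processing notes. Strandedness, the salmon version and the annotation release are not stated there, so overlapping antisense genes cannot be told apart. Of a library's values 1.01% to 7.18% were not whole, and all were rounded.

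The 9 Simmental-like libraries (18.2 to 23.2 M counts) were fitted together in edgeR 4.0.16 (R 4.3.3) with TMM factors, filterByExpr by stage, a robust quasi-likelihood fit and F-tests for 3 comparisons, with Benjamini-Hochberg adjustment over 13099 genes and a threshold of 0.05. The SE of a log2 change is its size divided by the root of F. The fit was repeated with total-count scaling, and alternatives included other scalings and filters, DESeq2 1.42.0, limma-voom (limma 3.58.1), a replicate block and leaving out each library. The fit was also run on counts simulated from the means and dispersions of these same libraries, which checks the code and not the results. The members and gene lists were chosen with earlier results of these data known. By rule, MCM2 to MCM7, the 3 largest called changes per role group and the 6 largest among other pathway genes were named in each comparison; the other members were described after their values were seen. Correlations of deviations between same-numbered libraries ranged from -0.60 to 0.33, and the libraries were not treated as paired. With so few libraries per stage these correlations cannot exclude a culture or batch shared by same-numbered libraries. RefSeq (ARS-UCD2.0) gave names, gene lengths and which genes share a chromosome. No sequences are shown.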

Additional observations from a re-analysis of the deposited data

How the results depend on the processing

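Of the members called, 12 of 28 in senescent against primary, 12 of 22 in immortalized against senescent and 9 of 18 in immortalized against primary libraries stayed called under every alternative run. Total-count scaling gave 13 higher and 11 lower members with a median of 0.14 for senescent against primary, 14 higher and 1 lower with a median of 0.22 for immortalized against senescent, and 17 higher and 2 lower with a median of 0.36 for immortalized against primary. DESeq2 gave 5 higher members in the first comparison and 1 lower in the second, and limma-voom 5 higher in the first. Fitting only the 6 libraries compared gave 38 called and 5 lower in the second, and 9 called and 2 lower in the third. The share of all genes called is given only for TMM and total-count scaling of all Simmental-like libraries. Leaving out 1 library gave 18 to 33 called (2 to 7 higher, 16 to 28 lower, median -0.36 to -0.31), 16 to 31 called (16 to 29 higher, 0 to 2 lower, median 0.36 to 0.40) and 10 to 24 called (7 to 14 higher, 2 to 10 lower, median -0.04 to 0.06). With senescent 1 and 2 summed as 1 sample, 20, 16 and 14 were called. The 5 CPM filter left out E2F2. At the depth of the Holstein-like primary libraries, a member at 0 could lie at up to 2.05 to 2.11 CPM. The cause of these shifts was not tested.

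The same replicate numbers occur at each stage, but the main fit did not treat the libraries as paired. With a replicate block 25, 19 and 15 members were called, with 3, 19 and 8 higher.

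Log2 changes that turned sign by total count were, for senescent against primary, MCM2 0.096, GINS1 0.14, GINS2 0.096, CDC7 0.37, RFC3 0.21, RFC4 0.31, POLA2 0.0014, POLD1 0.37, POLE2 0.19, RPA2 0.19, FEN1 0.22, RRM1 0.15, RRM2 0.14, UHRF1 0.13, CCNE2 0.13; for immortalized against senescent, CDC7 -0.0072, RFC5 -0.14, POLA1 -0.038, DNMT1 -0.10; and for immortalized against primary, MCM3 0.19, MCM7 0.098, CDT1 0.12, ORC1 0.14, GINS1 0.25, POLE 0.12, RPA2 0.21, RPA3 0.24, LIG1 0.14, RRM1 0.25, TYMS 0.25, UHRF1 0.20. By upper-quartile scaling RFC5 in immortalized against senescent was -0.0040 and GINS1 in immortalized against primary 0.0062, and with senescent 1 and 2 summed RFC5 was -0.0040. Leaving out 1 library turned the sign of some changes, with ranges for senescent against primary of POLD1 -0.21 to 0.014, POLE -0.00064 to 0.43; for immortalized against senescent of RFC5 -0.016 to 0.061, POLA2 -0.093 to 0.023, E2F1 -0.089 to 0.00070; and for immortalized against primary of MCM4 -0.069 to 0.16, RFC3 -0.028 to 0.044, RPA3 -0.35 to 0.21, RRM2 -0.041 to 0.12, CCNE1 -0.045 to 0.52, CCNE2 -0.11 to 0.30, MCM5 -0.053 to 0.28, GMNN -0.035 to 0.13, POLE -0.38 to 0.064, TK1 -0.077 to 0.24, RPA2 -0.22 to 0.052, RRM1 -0.18 to 0.034.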
